A study of Mus musculus with 4 samples.

Results

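The mitochondrial ribosomal proteins were taken as every probe set of the array whose annotated gene symbol starts with Mrpl or Mrps followed by a digit, where Mrpl names proteins of the large subunit and Mrps those of the small subunit. The rule found 156 probe sets of 76 genes, 47 of the large subunit and 29 of the small subunit, among 18194 named genes on the array. All 76 genes were bright enough to be tested, beside 13070 genes tested in all. Messenger RNA was measured on single-colour Affymetrix Mouse Genome arrays in whole dorsal skin taken at postnatal day 16, from bitransgenic mice that overexpress deltaNp63alpha and from wild type mice, with 2 arrays per group. DeltaNp63alpha is the form of the transcription factor p63 that prevails in basal keratinocytes. The arrays of a group are called biological replicates of animals, which are numbered 1 and 2. The sources used here do not give the promoter or the cells that drive the transgene, any agent used to switch it on, the strain, the litters or the sexes. The family was proposed with results of this same comparison known, so its differences and counts are given as a description and support nothing.

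The mitochondrial ribosome translates the few messenger RNAs that are made inside the organelle, all of which code for core subunits of the respiratory chain and ATP synthase. Its RNAs come from mitochondrial DNA, while all of its proteins are encoded in the nucleus, made on cytosolic ribosomes and imported. The small subunit reads the codons, and the large subunit joins the amino acids and holds the tunnel through which the new chain leaves, next to the inner membrane. Some of the proteins descend from those of the bacterial ribosome, and others are found in mitochondria only. In skin, mitochondria are plentiful in the muscle sheet under the dermis and are lost from keratinocytes as these cornify.

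The genes of the family are scattered, and the 67 of the 76 that have an entry in the RefSeq promoter table (GRCm38.p6) lie on 16 chromosomes. Upstream sequences of 5 genes are shown because nuclear genes for mitochondrial proteins often carry motifs of NRF1, of ETS factors such as GABP, and of YY1 near their starts. Each sequence runs 5′ to 3′ on the strand of its gene, ends at the base before the annotated start and lies outside any annotated gene. Capitals mark the NRF1 motif GCGCATGCG or the ETS motif CCGGAAGT, on either strand. Mrpl12 is shown as the gene with the largest difference in the family. Mrpl17 and Mrpl32 had the largest differences among genes with an NRF1 match in such a stretch, and Mrps22 and Mrpl51 among those with an ETS match. All 5 were thus picked on the differences of these same data. Mrpl32 holds 3 NRF1 matches, and Mrpl51 is the gene with the highest signal of the family.
Mrpl12 (chr11:120484487-120484636, plus strand): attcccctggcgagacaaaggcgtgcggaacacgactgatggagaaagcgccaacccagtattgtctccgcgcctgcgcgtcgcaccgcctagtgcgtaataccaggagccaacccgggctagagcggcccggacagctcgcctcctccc
Mrpl17 (chr7:105811088-105811237, minus strand): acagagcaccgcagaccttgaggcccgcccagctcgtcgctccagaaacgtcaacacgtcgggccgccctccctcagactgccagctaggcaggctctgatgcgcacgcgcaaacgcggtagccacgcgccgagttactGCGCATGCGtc
Mrpl32 (chr13:14613038-14613187, minus strand): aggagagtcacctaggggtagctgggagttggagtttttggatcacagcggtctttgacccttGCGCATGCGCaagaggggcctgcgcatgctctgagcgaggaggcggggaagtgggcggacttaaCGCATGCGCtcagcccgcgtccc
Mrps22 (chr9:98601680-98601829, minus strand): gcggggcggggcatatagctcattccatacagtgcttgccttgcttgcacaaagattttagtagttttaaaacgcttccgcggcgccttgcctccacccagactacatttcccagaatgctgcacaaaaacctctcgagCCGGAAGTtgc
Mrpl51 (chr6:125192101-125192199, plus strand): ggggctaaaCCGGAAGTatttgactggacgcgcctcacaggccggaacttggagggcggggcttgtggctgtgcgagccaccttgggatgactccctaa
The match in Mrpl17 and that in Mrps22 both began 11 bases before the start, while that in Mrpl51 began 90 bases before it. In Mrpl32, matches on opposite strands overlapped at 87 and 86 bases before the start, and the last one began 23 bases before it. The Mrpl12 stretch holds no capitals, and its whole window held none of the 3 motifs as spelled here.

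Over the window of 300 bases, from 250 before the start to 50 after it, 29 of the 67 members (43.3%) held at least 1 of the 3 motifs, counting both strands. The same share was 15.8% over the 10245 tested genes with a promoter entry and 11.1% over 17492 protein-coding genes. The NRF1 motif was found in 7 members (10.4%), against 3.79% of the tested genes and 2.61% of the protein-coding genes. The ETS motif was found in 12 members (17.9%), against 8.31% and 5.69% of those sets. The YY1 motif, AAGATGGC, was also found in 12 members (17.9%), against 4.89% and 3.57%. By subunit, NRF1 matches stood in 6 of 41 large subunit genes and 1 of 26 small subunit genes, and YY1 matches in 6 genes of each. No promoter held overlapping matches of different motifs, and in 3 promoters NRF1 matches on opposite strands overlapped. A match describes letters only and is neither a binding site nor a cause, and promoters of the family had a median GC content of 58.3%, against 60.7% for the tested genes.

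Many of these genes start back to back with another gene. A neighbour on the opposite strand started within 300 bases of 18 members (26.9%), against 9.37% of the tested genes and 6.48% of protein-coding genes. The 18 were 13 large and 5 small subunit genes. Mrps11 and Mrpl46, a protein of each subunit, form such a pair, and the whole stretch between their starts is shown, on the plus strand, because it holds only 41 bases.
Mrps11 and Mrpl46 (chr7:78783090-78783130): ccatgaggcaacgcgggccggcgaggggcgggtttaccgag
This stretch held none of the 3 motifs. Mrpl46 had signals of 1167.9 and 1183.2 in bitransgenic skin and of 688.3 and 1017.3 in wild type skin, so its groups did not overlap. Mrps11 had signals of 543 and 458 in bitransgenic skin and of 292.2 and 511.6 in wild type skin, where the second wild type array lay between the bitransgenic arrays.

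As a check of the labels, 2 of 4 Trp63 probe sets were much brighter in bitransgenic skin. One read 10325 and 15246.7 in bitransgenic skin against 205.7 and 837.8 in wild type skin (limma adjusted p = 0.0345), and the other differed by 4.53 on the log2 scale (limma adjusted p = 0.0343). The remaining probe sets differed by -0.04 and -0.33 on that scale and did not pass. Median signals of the arrays ran from 97.9 to 113.1. Across all genes tested the correlation was 0.958 between the bitransgenic arrays, 0.93 between the wild type arrays and 0.852 to 0.899 across groups. Over the members alone these values were 0.934, 0.918 and 0.892 to 0.95. The highest, 0.95, was that between the second bitransgenic and the second wild type array, so these 2 arrays each correlated best outside their group. The remaining values across groups, 0.892 to 0.917, lay below both values within groups. Such correlations rest on levels across genes and do not test a difference by genotype. The tissue carried the markers of skin in every array, with a median level of basal keratinocyte genes between 11.87 and 12.52 on the log2 scale. With so few arrays the precision of all values below is low. Skin is a mixture, so a shift in the share of a cell type and a change of RNA per cell cannot be told apart.

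No gene of the family passed limma's threshold of an adjusted p under 0.05. The background of that test was 0.750% of the genes tested called higher in bitransgenic skin and 1.58% called lower. At an unadjusted p under 0.05, 8 of the 76 genes were higher and 0 lower, beside 6.91% of all genes higher and 9.76% lower. The mean of 67 of the 76 genes was higher in bitransgenic skin and that of 9 was lower, while 6601 of all 13070 genes had a higher mean and 6469 a lower one. Both bitransgenic arrays lay above both wild type arrays in 42 of the 76 genes (55.3%), beside 23.9% of all genes. Both lay below in 1 gene (1.32%), beside 24.9% of all genes. Nothing is read from these shares, because the family was chosen on this comparison.

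The differences were small and mostly of one sign. All differences are bitransgenic minus wild type, on the scale of log2(signal + 16). Their median was 0.30 over the family, which is 1.23-fold, and they ran from -0.46 to 0.91. The median over all genes was 0.0053. Among the 7648 genes whose mean level lay within the range of the family, the median was 0.04 and 53.4% had a higher mean in bitransgenic skin. No member was lower by 1.5-fold or more and 14 were higher by at least that much.

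In the large subunit the median difference was 0.35, a 1.28-fold higher level in bitransgenic skin. The means of 43 of the 47 genes were higher and those of 4 were lower, with a range of -0.17 to 0.91. At an unadjusted p under 0.05 there were 5 genes higher and 0 lower, beside 6.91% and 9.76% of all genes, and 0 passed after adjustment. Both bitransgenic arrays lay above both wild type arrays in 29 genes (61.7%), beside 23.9% of all genes. In no gene did both lie below, beside 24.9% of all genes.

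Mrpl12, which forms the flexible stalk that engages translation factors, stood first in the family. Its signal was 3474.4 and 3169.3 in bitransgenic skin, against 1557.1 and 1972.7 in wild type skin. Both bitransgenic arrays were clearly above both wild type arrays, and the difference was 0.91 ± 0.24 (SE, n = 2 per group), a 1.89-fold higher level with a 95% interval of 0.33 to 1.5 on the log2 scale and a limma adjusted p of 0.126. Mrpl45, which in mammals sits by the exit of the tunnel and ties the ribosome to the inner membrane, read 1738.3 and 1179.7 in bitransgenic skin, against 826.6 and 819.9 in wild type skin. The wild type arrays were nearly equal while the bitransgenic arrays lay apart from each other, and the difference was 0.79 ± 0.28 (limma adjusted p = 0.235). Mrpl55, a protein with no bacterial counterpart, read 1213.2 and 1072.9 in bitransgenic skin, against 617.2 and 798.9 in wild type skin. Mrpl36, the counterpart of a small zinc-binding protein of the bacterial ribosome, read 1199.6 and 1022.6 in bitransgenic skin, against 597.7 and 793.2 in wild type skin. In both genes the first wild type array was the lowest and the first bitransgenic array the highest, with differences of 0.69 ± 0.27 for Mrpl55 and 0.67 ± 0.28 for Mrpl36.

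Mrpl28, a protein of bacterial descent, read 2835.3 and 2518.9 in bitransgenic skin, against 1595.4 and 1762.2 in wild type skin, a difference of 0.67 ± 0.23 (limma adjusted p = 0.218). Within each group the arrays of this probe set lay close together. In its other probe sets past the filter the bitransgenic arrays lay further apart, at 1925.9 and 1509.9 and at 2316.9 and 1616.2. Mrpl20, whose bacterial counterpart binds ribosomal RNA early in assembly, read 2891.2 and 2718.1 in bitransgenic skin, against 1416.7 and 2223.6 in wild type skin. Here the wild type arrays were further apart than the second wild type array was from the bitransgenic ones. Mrpl17, whose bacterial counterpart lies at the exit of the tunnel, read 2092.4 and 2759.9 in bitransgenic skin, against 1269.4 and 1825.5 in wild type skin. Mrpl41, a protein found in mitochondria only, read 4145 and 2216.3 in bitransgenic skin, against 1955.1 and 1887.8 in wild type skin. The first bitransgenic array alone was far above the others for this probe set of Mrpl41, and its difference of 0.65 had an SE of 0.33 (limma adjusted p = 0.406). A dimmer probe set of Mrpl41 read 2339.8 and 2100.1 in bitransgenic skin, against 1434.2 and 1689.8 in wild type skin.

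**Figure D1:**
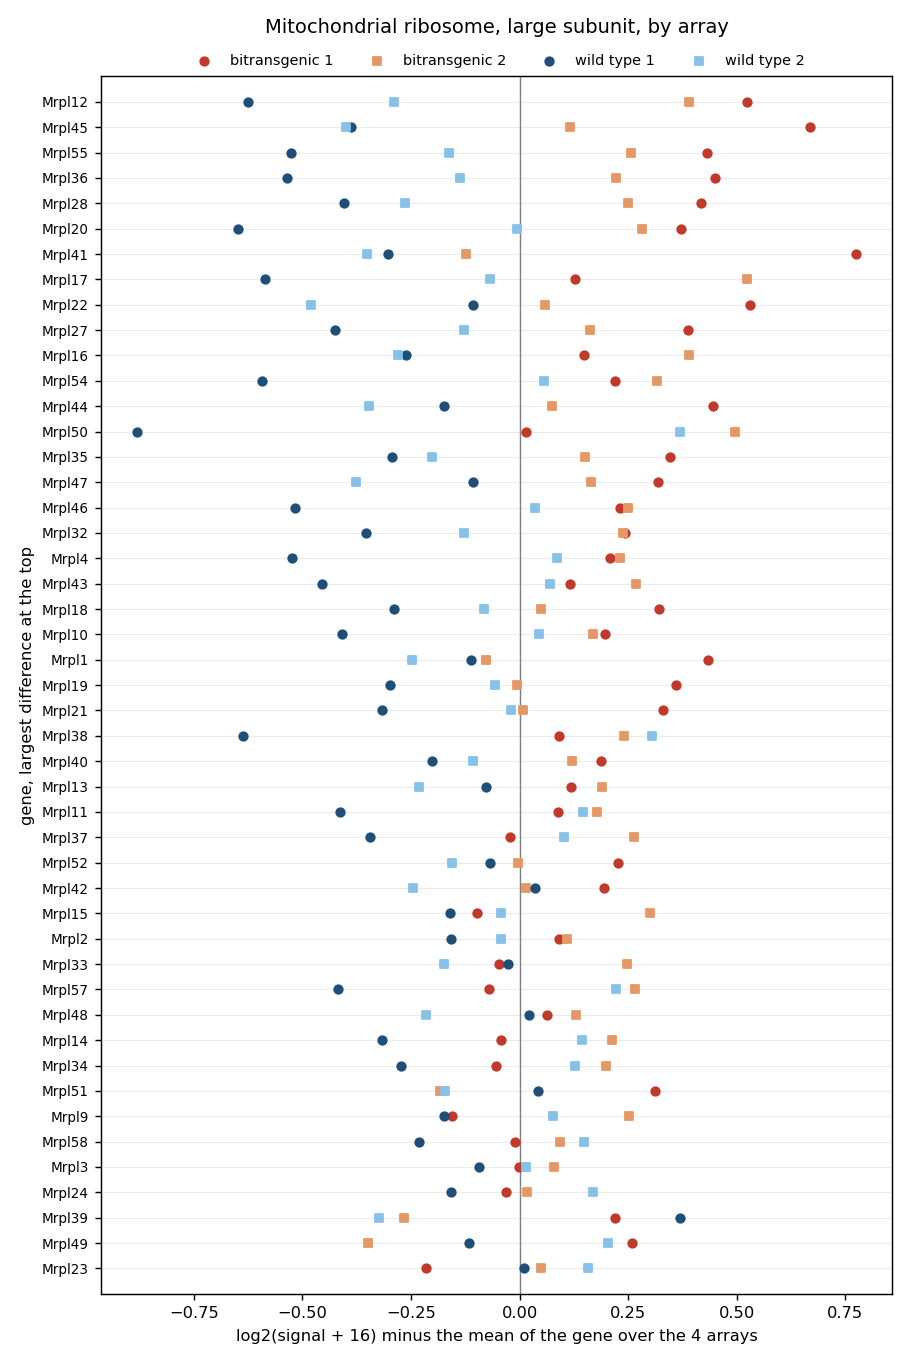
Levels of the 47 large subunit genes in each array, as log2(signal + 16) minus the mean of the gene over the 4 arrays (horizontal axis), with 1 point per array and the genes ordered from the largest difference at the top. In the upper rows the red and orange points of bitransgenic skin lie right of the blue points of wild type skin, and wild type 1 is the lowest array in 31 of 47 genes.

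The 4 large subunit genes with a lower mean in bitransgenic skin all had overlapping groups. Mrpl23, whose bacterial counterpart is the docking site for factors at the tunnel exit, read 1816.7 and 2187 in bitransgenic skin, against 2126.6 and 2358.1 in wild type skin, a difference of -0.17 ± 0.24. Mrpl49 read 903.7 and 587.6 in bitransgenic skin, against 693.1 and 868.6 in wild type skin. In this probe set the bitransgenic arrays held both the highest and the lowest value, while a dimmer probe set differed by 0.24. Mrpl39, a relative of threonyl-tRNA synthetases, read 5389.1 and 3839.9 in bitransgenic skin, against 5983.2 and 3690.9 in wild type skin. This probe set split by replicate number rather than by genotype, with the first array of each group high. A dimmer probe set of Mrpl39 read 1481 and 1469.4 in bitransgenic skin, against 1379.3 and 1611.2 in wild type skin, without that split. Mrpl24 read 3264.4 and 3377.2 in bitransgenic skin, against 2990.6 and 3755.5 in wild type skin, a difference of -0.01.

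The brightest large subunit probe sets showed little difference. Mrpl51 read 6491.3 and 4601 in bitransgenic skin, against 5378.6 and 4637.1 in wild type skin (0.13 on the log2 scale). Mrpl42 read 4558.8 and 4025.5 in bitransgenic skin, against 4081.5 and 3353.5 in wild type skin, and the groups overlapped in both genes. At the dim end, Mrpl1, part of the stalk by which spent tRNA leaves the bacterial ribosome, read 514.3 and 355.6 in bitransgenic skin, against 347.2 and 314.6 in wild type skin. In this probe set the groups did not overlap, but the second bitransgenic array was only just above the first wild type array. A slightly dimmer probe set of Mrpl1 read 265.5 and 400.2 in bitransgenic skin, against 315.9 and 400.5 in wild type skin. It differed by -0.12, with overlapping groups. Mrpl37 read 665.3 and 813.6 in bitransgenic skin, against 528.2 and 726.7 in wild type skin, with overlap. The 31 large subunit genes beyond these 16 all had a higher mean in bitransgenic skin, by 0.08 to 0.59 on the log2 scale. Of these, 20 had both bitransgenic arrays above both wild type arrays, beside 23.9% of all genes. The smallest limma adjusted p of the 31 genes was 0.318.

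In the small subunit the median difference was 0.25, a 1.19-fold higher level in bitransgenic skin. The means of 24 of the 29 genes were higher and those of 5 were lower, with a range of -0.46 to 0.72. At an unadjusted p under 0.05 there were 3 genes higher and 0 lower, beside 6.91% and 9.76% of all genes, and 0 passed after adjustment. Both bitransgenic arrays lay above both wild type arrays in 13 genes (44.8%) and below both in 1 gene (3.45%), beside 23.9% and 24.9% of all genes. Which subunit shifted more was not tested. Of proteins with a bacterial counterpart, 26 of 28 in the large subunit and 16 of 17 in the small subunit had a higher mean, with medians of 0.36 and 0.25. Of proteins classed here as found in mitochondria only, 17 of 19 in the large subunit and 8 of 11 in the small subunit did, with medians of 0.31 and 0.27. Mrpl58 and Mrps28 were counted in this class, and the counts depend on that classing.

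Mrps7, which binds ribosomal RNA in the head of the small subunit, read 1985.2 and 1607.4 in bitransgenic skin, against 963.8 and 1206.1 in wild type skin, a difference of 0.72 ± 0.26 (limma adjusted p = 0.239). Mrps34, a protein found in mitochondria only, read 3544.2 and 2958.7 in bitransgenic skin, against 1807.7 and 2153.8 in wild type skin, a difference of 0.71 ± 0.24 (limma adjusted p = 0.212). Mrps27, an RNA-binding protein of the pentatricopeptide repeat class, read 422.3 and 482.7 in bitransgenic skin, against 243.2 and 299.8 in wild type skin. It was the dimmest gene of the family by mean signal, and its groups did not overlap. Mrps35 read 1351.9 and 1464 in bitransgenic skin, against 876.7 and 973.4 in wild type skin, with arrays close together within each group and a difference of 0.60 ± 0.24. Mrps22, a protein whose loss causes mitochondrial disease in humans, read 1901.4 and 1662.4 in bitransgenic skin, against 1026.9 and 1369.4 in wild type skin. Mrps9 read 1362.2 and 1001.8 in bitransgenic skin, against 893.2 and 709.9 in wild type skin, and in both genes the groups stood apart. Dimmer probe sets of Mrps9 differed by 0.46, 0.45 and -0.20.

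The paralogs Mrps18a, Mrps18b and Mrps18c descend from a single bacterial protein, and in mammalian structures Mrps18a sits in the large subunit despite its name. Mrps18b read 1540.9 and 1095.9 in bitransgenic skin, against 719.3 and 1015.1 in wild type skin (0.60 on the log2 scale). Mrps18c read 3078.4 and 3688.9 in bitransgenic skin, against 2122.4 and 2632.7 in wild type skin (0.51). Mrps18a read 1091.5 and 996 in bitransgenic skin, against 928 and 1068.9 in wild type skin (0.07), and was the only one of the 3 with overlapping groups. Differences between the paralogs were not tested. Mrps30 has likewise been placed in the large subunit, and its mean differed by 0.13 with overlapping groups.

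**Figure D2:**
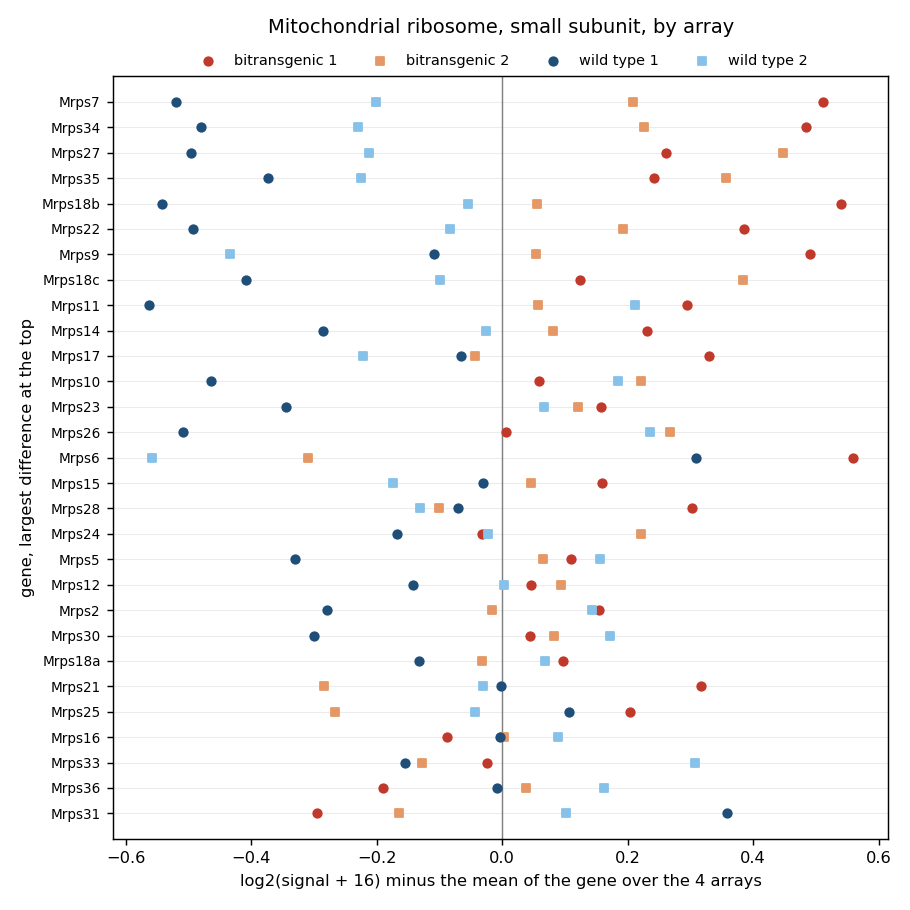
Levels of the 29 small subunit genes in each array, as log2(signal + 16) minus the mean of the gene over the 4 arrays (horizontal axis), with 1 point per array and the genes ordered from the largest difference at the top. Bitransgenic points lie right of wild type points in the top 8 rows, the groups mix in most rows further down, and in the last row, Mrps31, the order is turned round.

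Mrps31 was the only member of either subunit whose bitransgenic arrays both lay below the wild type arrays. It is a protein found in mitochondria only that is also known as an islet autoantigen. Its signal was 575.9 and 632.5 in bitransgenic skin, against 915 and 763.4 in wild type skin, a difference of -0.46 ± 0.27 (limma adjusted p = 0.465). Mrps36 read 1095.1 and 1285.5 in bitransgenic skin, against 1244.7 and 1403 in wild type skin. This protein carries a ribosomal name but is known as a subunit of the 2-oxoglutarate dehydrogenase complex. Mrps33 read 2658.7 and 2472.1 in bitransgenic skin, against 2427.2 and 3351.3 in wild type skin, where the second wild type array alone was high. Mrps16 and Mrps25 had mean differences of -0.08 and -0.06, with overlapping groups. Mrps14, the brightest of the small subunit, read 5297 and 4775 in bitransgenic skin, against 3700.1 and 4433.8 in wild type skin (0.31), with no overlap. The 14 small subunit genes outside the rule for naming, Mrps18a and Mrps30 among them, had higher means in bitransgenic skin by 0.03 to 0.29. In 4 of them both bitransgenic arrays lay above both wild type arrays, beside 23.9% of all genes.

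These values come from the brightest probe set of each gene. Of the 156 probe sets, 133 passed the filter on low signal and 23 of 21 genes did not, with mean signals of 5.2 to 57.7. Fitted each by itself, 109 of the 133 had a higher mean in bitransgenic skin and 24 a lower one, 0 passed, and the smallest limma adjusted p was 0.213. In 33 genes more than 1 probe set passed the filter, and in 12 of them the signs of the differences were mixed. Mrpl51 was the single gene whose probe sets lay over 1 apart on the log2 scale, since its second probe set read 60.3 and 105.7 in bitransgenic skin, against 171.3 and 170.2 in wild type skin. That probe set is far dimmer than the one that stands for the gene. A further 4 probe sets were annotated to Mrpl30, Mrpl53 or Mrps34 together with another gene, and were named for no gene.

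The size of the shift, above all in the small subunit, changed with the first wild type array. That array was the lowest of the 4 in 50 of the 76 genes (65.8%), beside 29.4% of all genes, and the second wild type array was the lowest in 18. The first bitransgenic array was the highest in 39 genes and the second in 26. The 2 wild type arrays differed from each other by a median of 0.25 over the family, with the second higher in 54 of the 76 genes, while over all genes that median was -0.01. The 2 bitransgenic arrays differed by a median of -0.06. The spread between the wild type arrays was thus as large as the median difference of the small subunit.

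With arrays of the same number set against each other, the median difference of the large subunit was 0.55 for the first and 0.20 for the second, and 39 of the 47 genes were higher in both. For the small subunit it was 0.43 for the first and 0.06 for the second, with 18 of the 29 genes higher in both and 3 lower in both. The first was the larger in 62 of the 76 genes. The labels do not say what the number stands for, but the spiked-in controls of the bacterial genes dap, lys, phe and thr split by it. All 24 of their probe sets were brighter in both arrays numbered 1 than in both numbered 2. The ratio was 2.58 to 6.29 in bitransgenic skin and 2.85 to 8.07 in wild type skin. The BioB, BioC, BioDn and Cre controls did not share this order. BioB-5 read 328.4 and 466.6 in bitransgenic skin, against 418.1 and 396.2 in wild type skin. BioC-3 read 1282.3 and 2134.7 in bitransgenic skin, against 1665.3 and 1948.7 in wild type skin. What sets the control signals, and its part in the levels of the family, was not tested. With the number as a block in the fit, 0 members passed and Mrpl12 had a limma adjusted p of 0.0863. Without the first wild type array, the median was 0.26 for the large subunit, where 36 of 47 genes had a higher mean, and 0.07 for the small subunit, where 18 of 29 did. Signs of single genes turned as well, as Mrps11 then differed by -0.04 and Mrpl39 by 0.30. Without the first bitransgenic array, the small subunit median was 0.16, with 20 of 29 genes higher.

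**Figure D3:**
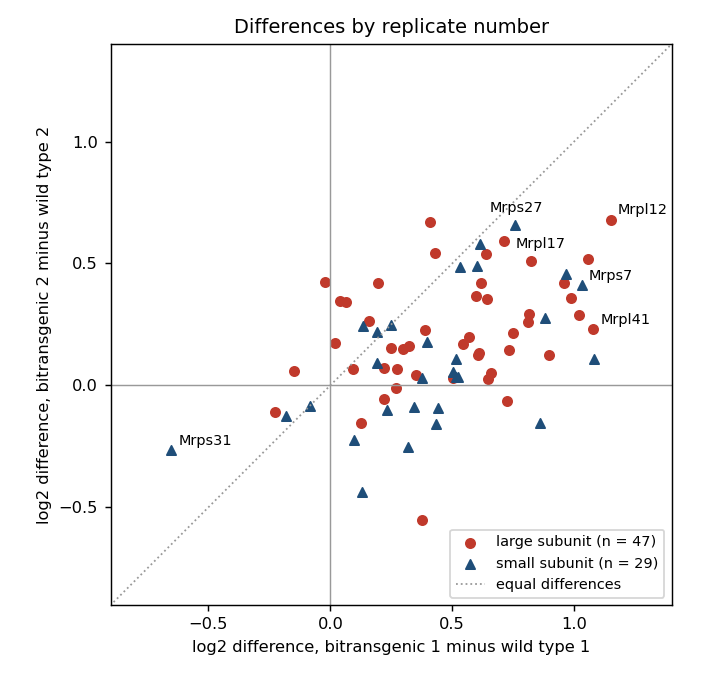
Log2 difference of each gene between arrays numbered 1 (horizontal axis) and between arrays numbered 2 (vertical axis), bitransgenic minus wild type, with 1 point per gene, and a dotted line where both are equal. Most points lie at upper right and below the dotted line, with medians of 0.55 and 0.20 for the large subunit and 0.43 and 0.06 for the small subunit, and Mrps31 lies alone far to the lower left.

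Other measures were also out of step in the first wild type array. The 12 cell division genes, such as Mki67 and Top2a, all had higher means in bitransgenic skin, with a median difference of 1.0 and 0 past the threshold. Their median level on the log2 scale was 10.66 and 10.92 in bitransgenic skin, against 9.19 and 10.46 in wild type skin, so that the first wild type array was lowest here too. The ratio of 3′ to 5′ signal of Gapdh, a sign of RNA integrity and labelling, was 0.944 and 0.931 in bitransgenic skin, against 1.55 and 1.02 in wild type skin. The same ratio of beta-actin read 1.70 and 1.54 in bitransgenic skin, against 1.66 and 1.53 in wild type skin, which separates the numbers rather than the groups. Cell types differed as well. All 7 skeletal muscle genes had lower means and 5 fell past the threshold, beside 1.58% of all genes. Their median levels were 9.99 and 10.51 in bitransgenic skin, against 14.56 and 12.92 in wild type skin. All 8 genes of the hair shaft and matrix had lower means and 4 fell past it, beside the same 1.58%. Their median levels were 6.44 and 9.10 in bitransgenic skin, against 13.04 and 13.78 in wild type skin. The part of any of these in the levels of mitochondrial ribosomal proteins was not tested.

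The markers of other cell types moved in both directions. Dermal fibroblast genes were lower in mean in 6 of 6 (median -0.92), adipocyte genes in 4 of 4 (median -1.27) and melanocyte genes in 4 of 4 (median -1.53), with 0 past the threshold. The median levels of the melanocyte genes were 8.64 and 8.80 in bitransgenic skin, against 8.51 and 11.80 in wild type skin. The second wild type array alone was thus high for that list. Only 2 of its 4 genes had both bitransgenic arrays below both wild type arrays, beside 24.9% of all genes. Macrophage genes were higher in mean in 4 of 4 (median 0.78), with 0 past it. The T cell, endothelial and sebocyte lists held 3 or 4 genes each, had mixed signs, with medians of -0.50, -0.03 and -0.20, and 0 of their genes passed. Among basal keratinocyte genes 2 of 5 had a higher mean (median -0.02). Among suprabasal keratinocyte genes 3 of 5 did (median 1.35), and the lowest of the 5 differed by -1.15. Their groups stood apart in 3 genes higher and 1 lower, beside 23.9% and 24.9% of all genes. Only Flg, which codes for filaggrin, passed the threshold, beside 0.750% of all genes called higher. It read 3178.4 and 2488.6 in bitransgenic skin, against 655.3 and 605.8 in wild type skin (limma adjusted p = 0.0156).

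**Figure D4:**
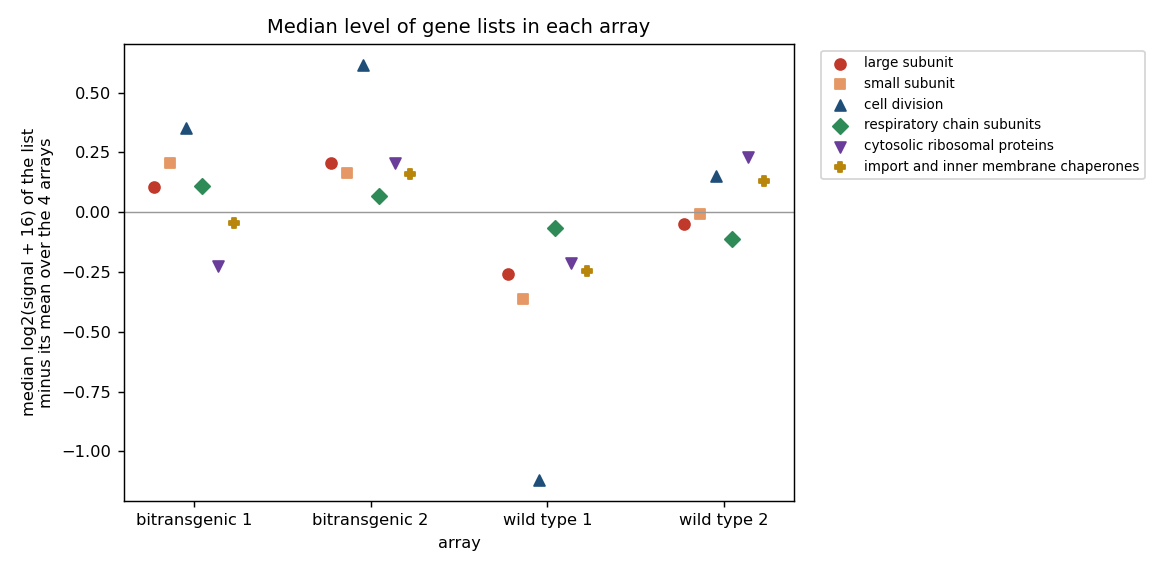
Median log2(signal + 16) of gene lists in each array, minus the mean of the list over the 4 arrays (vertical axis), with arrays along the horizontal axis and 1 point per list. Wild type 1 is low for both ribosomal subunits and lowest for cell division genes, while the cytosolic ribosomal proteins separate the array numbers and not the genotypes.

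Set beside the families most like this one, the values were as follows, and differences between families were not tested. The cytosolic ribosomal proteins, which make up the ribosome outside the organelle, were counted only where a probe set was annotated to 1 gene. The list is therefore not the whole family. It had a median difference of -0.03 over 41 genes, with 16 higher and 25 lower in mean. Their groups stood apart in 1 gene (2.44%) in each direction, beside 23.9% of all genes higher and 24.9% lower, and 0 passed the threshold. Rps25, with the smallest p, read 1096.2 and 1433.8 in bitransgenic skin, against 798.8 and 993.5 in wild type skin (limma adjusted p = 0.453). The respiratory chain subunits were counted together with those of ATP synthase. Among them are the partners of the proteins that the mitochondrial ribosome makes. This list had a median difference of 0.09 over 76 genes, with 53 higher and 23 lower in mean and 0 past the threshold. Its groups stood apart in 26 genes higher (34.2%) and 7 lower (9.21%), beside the same shares of all genes. Cox8b, a cytochrome oxidase subunit of muscle, had the smallest p there. It read 369 and 311.8 in bitransgenic skin, against 5011.2 and 1151.9 in wild type skin (limma adjusted p = 0.0925), in the direction of the muscle genes above.

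**Figure D5:**
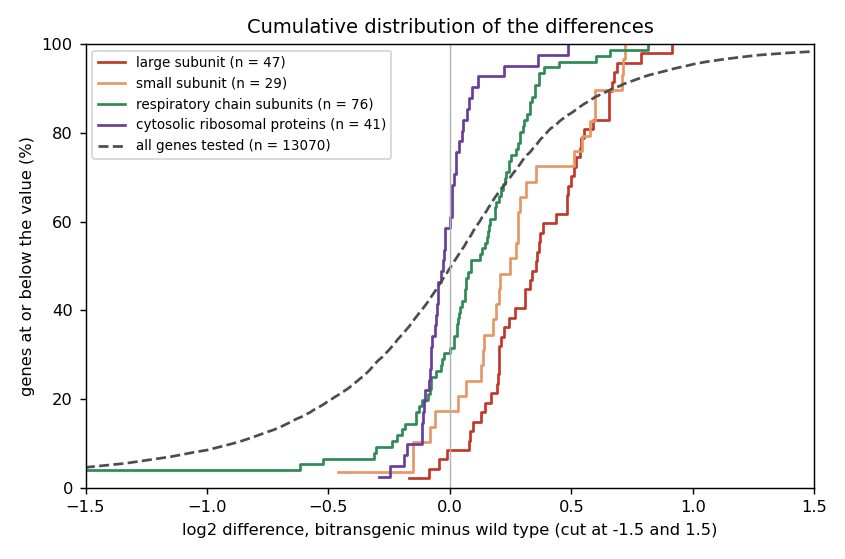
Share of genes (vertical axis, in percent) whose log2 difference, bitransgenic minus wild type, is at or below the value on the horizontal axis, for both ribosomal subunits, 2 other families and all 13070 genes tested. The curves of the large and small subunit lie right of 0 over most of their height, with medians of 0.35 and 0.25, while the cytosolic ribosomal proteins climb steeply around their median of -0.03.

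Genes that work with the mitochondrial ribosome were counted in lists, and none of their members passed limma's threshold. Import and inner membrane chaperones were the list with the highest median, 0.38, with 15 of 17 genes higher in mean. In it, Letm1, a protein of the inner membrane, read 1492 and 1417.9 in bitransgenic skin, against 607.6 and 841.2 in wild type skin (1.01 ± 0.27, limma adjusted p = 0.130). Translation factors had a median of 0.12, with 8 of 11 genes higher. Tsfm, the exchange factor of the elongation factor Tu, read 486.4 and 339.3 in bitransgenic skin, against 249.7 and 266 in wild type skin (0.63, limma adjusted p = 0.414). Mitochondrial tRNA synthetases had a median of 0.06, with 11 of 20 higher, and Fars2, which charges phenylalanine tRNA, had the smallest p (0.57, limma adjusted p = 0.385).

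Proteins of ribosome assembly and rRNA handling had a median of 0.04, with 13 of 22 higher. Among them Ddx28, an RNA helicase needed to build the large subunit, read 542.3 and 547.9 in bitransgenic skin, against 332.5 and 338.5 in wild type skin. The arrays were close together within each group, and the difference was 0.67 ± 0.28 (limma adjusted p = 0.30). Genes of mitochondrial DNA and transcription had a median of 0.10, with 9 of 12 higher, and Tfb2m, a transcription factor of mitochondrial DNA, had the smallest p (0.54, limma adjusted p = 0.328). Of 4 proteins of the mitochondrial ribosome that carry other symbols, 1 was higher and 3 were lower in mean, with a median of -0.07. Ptcd3, a small subunit protein, was the higher one (0.29, limma adjusted p = 0.664).

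The 12 regulators of nuclear genes for mitochondria had a median of 0.10, with 9 higher and 3 lower in mean. Ppargc1a, which codes for the coactivator PGC-1alpha and is abundant in muscle and brown fat, had the smallest p among them. It read 63.1 and 88.8 in bitransgenic skin, against 199.5 and 266.2 in wild type skin, a difference of -1.44 ± 0.37 (limma adjusted p = 0.117). The genes of the factors whose motifs were searched differed by 0.11 for Nrf1, 0.06 for Gabpa and 0.33 for Yy1. The level of a messenger RNA does not give the activity of its protein.

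Values of the neighbour that shares a start region with a member are given for 3 pairs in which both proteins work in mitochondria. Mrps27 starts 108 bases from Ptcd2, a gene of a mitochondrial RNA-binding protein. Ptcd2, named after its value was seen, read 1286.4 and 1546.8 in bitransgenic skin, against 620.3 and 715.5 in wild type skin (1.06 ± 0.26, limma adjusted p = 0.106). Both genes of this pair had groups that did not overlap. Mrpl43 starts 116 bases from Twnk, the gene of the mitochondrial DNA helicase. Mrpl43 differed by 0.38 and Twnk by 0.04, the second with overlapping groups. Mrps12 starts 147 bases from Sars2, which codes for the mitochondrial seryl-tRNA synthetase, and they differed by 0.14 and -0.19.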

How the data were processed

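RNA of 4 skin samples was hybridised to 1 array each. The authors deposited probe set intensities, not log-transformed. MAS5 and affy are named per the submitters' processing notes, while the sources used here do not give their versions or roles. All arrays had a trimmed mean of 500 in the deposited values, so each signal is relative to its array. Symbols came from the platform annotation (34945 of 45101 probe sets with 1 symbol, 932 with several, 9160 with none, 64 controls), and 34754 matched a RefSeq gene, which changed 0 symbols. Signals were taken as log2(signal + 16), which pulls differences of dim genes toward 0. Probe sets with a mean at or above the 40th percentile (a signal of 57.0) were kept, and the brightest stood for each gene. The test was limma 3.58.1 (lmFit, eBayes with a trend) under R 4.3.3, adjusted by Benjamini-Hochberg over 13070 genes at 0.05. Residual degrees of freedom were 2 and prior ones 4.45, and the code was tested on simulated data. The members, the gene lists and the rule for naming were chosen with earlier results of these data known. That rule took, per subunit, the 8 largest differences and up to 6 negative ones (the large subunit had 4 and the small subunit 5), the 3 brightest and 2 dimmest genes and genes with discordant probe sets, and the gene with the smallest p of each list of related genes. Genes named beyond it were chosen after their values were seen. Alternatives were 2 other pseudocounts, 2 other filters, 2 other normalizations, other choices of probe set, eBayes without a trend, a replicate block and leaving out each array. Motifs were searched as exact letters in RefSeq promoters of GRCm38.p6.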

Additional observations from a re-analysis of the deposited data

How the results depend on the processing

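No member passed under any of the 14 alternatives, and the smallest adjusted p of a member ran from 0.0611, without the second wild type array, to 0.546, without the first bitransgenic array. Counts over all genes moved. Without the filter 52 genes were higher and 132 lower, and with the replicate block 207 were higher and 438 lower, against 98 and 206. The block gave Mrpl12 an adjusted p of 0.0863. The labels do not say whether the numbers pair the arrays, and with 2 arrays per group the data cannot settle it. Deviations of same-numbered arrays correlated at 0.211. The spiked-in dap, lys, phe and thr controls split by number, while the BioB, BioC, BioDn and Cre controls did not share that order. Leaving out 1 array gave 22 to 314 genes higher and 96 to 635 lower. A lone array is then assumed to vary like the other group. The large subunit median ran from 0.26 to 0.47 and the small subunit median from 0.07 to 0.36 with 1 array left out, the lowest both without the first wild type array. Under the other alternatives they ran from 0.30 to 0.43 and from 0.23 to 0.33. Equal array medians moved the median of all genes to 0.08, and gave 45 of 47 and 25 of 29 genes with a higher mean. Taking the mean of the probe sets moved Mrpl51 to -0.41 and gave 40 of 47 large subunit genes a higher mean. The causes were not tested. None of the 433 values for named genes under the alternatives passed the threshold, and 417 kept their sign. The 16 that changed it belong to 7 genes (Mrpl24, Mrpl39, Mrpl49, Mrpl51, Mrps11, Mrps25 and Mrps33) and ran from -0.41 to 0.30. The probe sets carry no detection calls, so the filter stands in for signal over background.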
